A study of Rattus norvegicus with 30 samples.

Results

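The comparison described here set primary cultures of rat inner medullary collecting duct (IMCD) cells that had been moved from 300 to 600 mosmol/kg for 48 h against cultures kept at 600 mosmol/kg throughout. Both groups were therefore at the same osmolality when RNA was taken. They differed in how long they had been there, in the osmolality of the earlier culture and in the step itself. These cannot be told apart. All 3 arrays labelled as a 48 h challenge (replicates 1 to 3) and all 3 arrays labelled as cultivated at 600 without a challenge (replicates 1 to 3) were used, 6 of the 30 arrays of the series, and 14506 genes were compared on each. The question was which genes still differed from the steady state at 600 mosmol/kg after 48 h at that osmolality. The groups used beside them were cultures challenged from 300 to 600 for 3, 12 or 24 h, cultures moved from 600 to 900 for 24 h, and steady cultures at 900 and at 300 mosmol/kg, with 3 arrays each. The cells came from the renal inner medulla and no strain, age or time in steady culture was given. The labels name 5 µM cyclosporin A, a calcineurin inhibitor, in the treatment field of every sample but in no sample title, so they do not settle which cultures received it. They do not say whether the 3 replicates were separate cultures or animals. The p-values therefore reflect only how the arrays varied within groups, and that variation may be technical. The spread of each gene was pooled over the groups of all 30 arrays.

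The inner medulla is the part of the kidney with the highest and most variable solute concentration. Cells there keep their volume by taking up ions and then replacing them with organic osmolytes such as sorbitol, myo-inositol and taurine, a program driven in large part by the transcription factor NFAT5 (TonEBP). Principal cells of the collecting duct reabsorb water through aquaporin 2, which vasopressin places in the apical membrane through its V2 receptor, and the inner medullary segment also carries urea through the transporter encoded by Slc14a2. When such cells are grown in culture, the osmolality of the medium is known to affect how far aquaporin 2 is expressed.

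The values are log2 signals from Affymetrix rat gene arrays. Array medians lay between 5.63 and 5.76, and the correlation across genes between arrays was 0.997 to 0.998 within each of the compared groups and 0.981 to 0.984 between them. The median SD of a gene was 0.08 among the 48 h arrays and 0.09 among the steady 600 arrays. In the fit over all groups, which gave the SEs and p-values, it was 0.13. The deposited values hold no detection call, so a low signal cannot be told from background and a fold against one describes the deposited signals only, and the number of arrays limits the precision. These were bulk cultures, so fewer cells of a type and less RNA per cell cannot be told apart.

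After 48 h at 600 mosmol/kg the cultures differed from the steady cultures in several gene groups. The genes of the collecting duct, of the interferon response and of cell division were mostly lower in the 48 h arrays than in the steady 600 arrays, and neutrophil chemokines and other cytokines were higher. Of 11 measured tonicity genes, 5 were higher and 3 lower by the test given below, and 3 did not pass it, Nfat5 among them. The share called was above that of all genes, although 9 of the 11 were within 1.41-fold of their level at steady 600. Over all genes, 3185 differed at an adjusted p under 0.05 by limma's moderated test with Benjamini-Hochberg adjustment (22.0% of those tested). Of these, 1373 were higher (9.47%) and 1812 lower (12.5%). At least 2-fold differences were fewer, with 136 genes higher (0.938%) and 331 lower (2.28%). The median change over all genes was 0.0037 and the median absolute change 0.13 on the log2 scale. The share of lower genes among the calls was 56.89% and became 43.55% when each array was centred on its median, so the balance of higher and lower calls depends on the scaling.

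**Figure D1:**
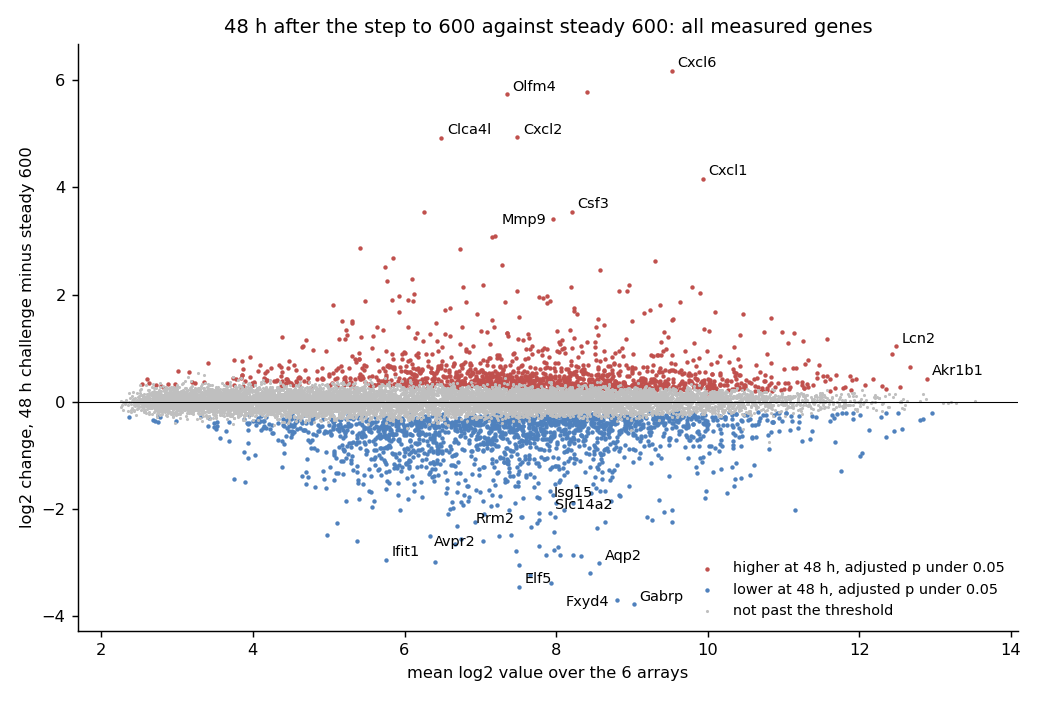
Each point is 1 of 14506 genes, with its mean log2 signal over the 6 arrays on the horizontal axis and its log2 change, 48 h challenge minus steady 600, on the vertical axis; coloured points passed an adjusted p of 0.05. The chemokine gene Cxcl6 lies highest at 6.18, and Gabrp and Fxyd4 lie lowest at -3.78 and -3.71.

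Of the 12 largest increases, 5 were members of the cytokine list (Cxcl6, Cxcl2, Cxcl1, Csf3 and Il1a). Cxcl6, a chemokine that attracts neutrophils, had log2 values of 12.70, 12.60 and 12.53 in the 48 h arrays, against 6.51, 6.80 and 5.98 in the steady 600 arrays. The groups did not overlap, and the change was 6.18 ± 0.18 (SE) on the log2 scale, or 72.5-fold (adjusted p = 1.06e-20). Values after ± are SEs of the fit from here on. Dlgap5l2 was next with 11.38, 11.21 and 11.28 in the 48 h arrays, against 5.37, 5.57 and 5.60 in the steady 600 arrays (5.77 ± 0.16). Olfm4, which encodes the secreted glycoprotein olfactomedin 4, had 10.44, 10.25 and 9.99 in the 48 h arrays, against 4.83, 4.31 and 4.31 in the steady 600 arrays. The log2 change was 5.74 ± 0.14 (adjusted p = 1.64e-22), with steady 600 values below the median of every array. Cxcl2 and Cxcl1, 2 further neutrophil chemokines, were higher by 4.94 ± 0.17 and 4.16 ± 0.10, and Csf3, the granulocyte colony-stimulating factor, by 3.54 ± 0.07. The remaining genes among the 12 largest increases were Clca4l of the CLCA family (4.92 ± 0.18), the olfactory receptor gene Or2a25 (3.53 ± 0.11), the matrix metalloproteinase gene Mmp9 (3.42 ± 0.09), the interleukin gene Il1a (3.09 ± 0.19), the anion exchanger gene Slc26a4 (3.08 ± 0.14) and Spetex2g (2.87 ± 0.17). Dlgap5l2, Clca4l, Or2a25 and Spetex2g belong to families of similar genes, so their probe sets may also read relatives. Dlgap5l2 had 3 probe sets, of which the brightest was used. Like those of Olfm4, the steady 600 values of Dlgap5l2, Cxcl2, Clca4l, Or2a25 and Spetex2g lay below the median of every array.

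The 12 largest decreases held 4 genes of the principal cell list (Fxyd4, Elf5, Aqp4 and Aqp2), 2 interferon-stimulated genes (Ifit1 and Mx2) and 6 others. Gabrp, the pi subunit of the GABA type A receptor, had log2 values of 7.05, 7.34 and 7.03 in the 48 h arrays, against 11.10, 10.83 and 10.82 in the steady 600 arrays. It was 13.7-fold lower (adjusted p = 3.15e-17). Fxyd4, a regulator of the sodium pump found in the collecting duct, had 7.16, 7.03 and 6.65 in the 48 h arrays, against 10.74, 10.66 and 10.57 in the steady 600 arrays, and was 13.1-fold lower. In neither gene did any 48 h array reach a steady 600 array. The retinaldehyde dehydrogenase gene Aldh1a1 (-3.05 ± 0.14), the prostaglandin reductase gene Ptgr1 (-3.20 ± 0.16), the lactate dehydrogenase gene Ldhc (-3.0 ± 0.14), the annexin gene Anxa8 (-2.86 ± 0.14) and Lypd2 (-3.39 ± 0.16) were lower too.

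**Figure D2:**
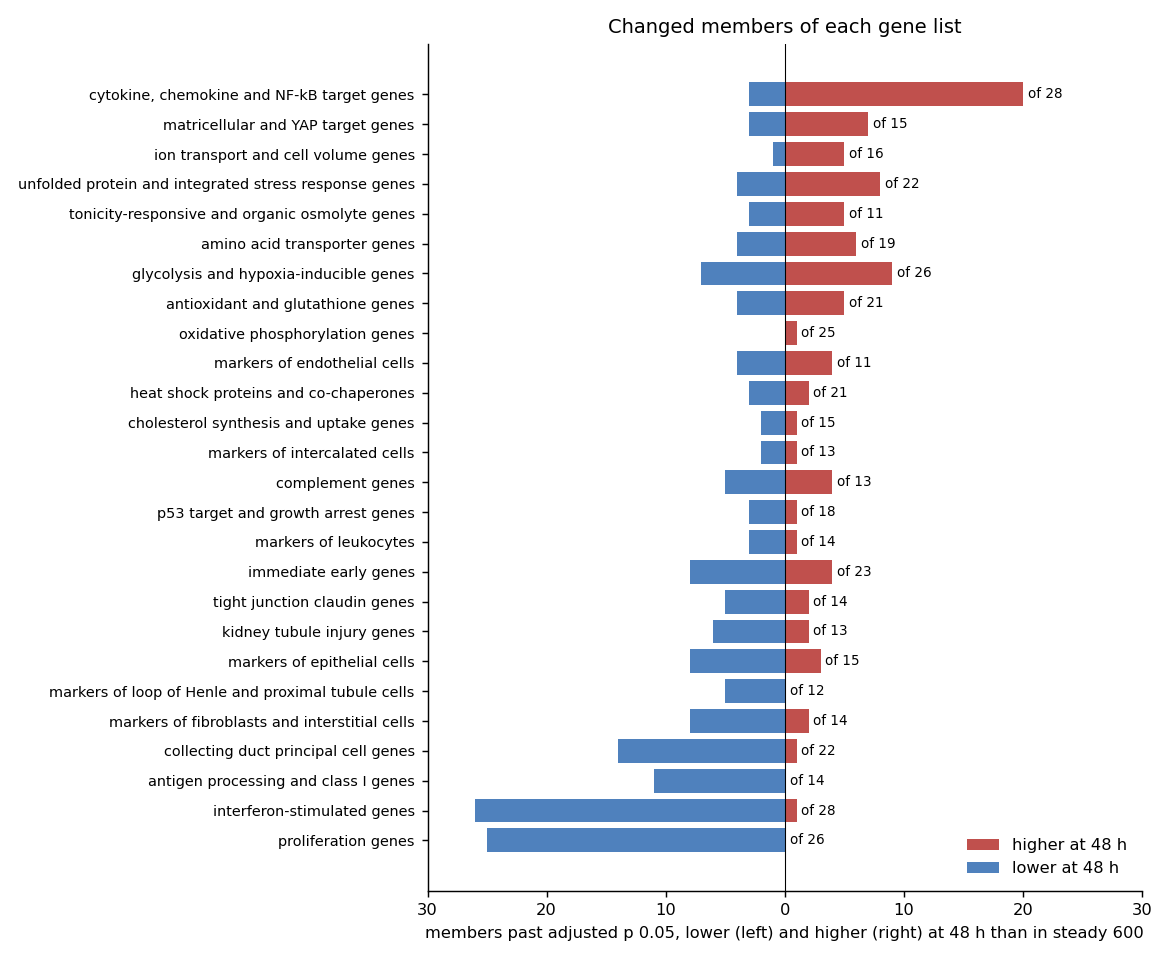
Bars give, for each gene list, the number of measured members that were higher (right) and lower (left) in the 48 h arrays than in the steady 600 arrays at an adjusted p under 0.05. Cytokine genes lie to the right with 20 members higher, and interferon-stimulated and proliferation genes to the left with 26 and 25 members lower. Over all genes, 9.47% were higher and 12.5% lower.

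Osmolyte and tonicity genes differed by less, and in both directions. Nfat5 itself had log2 values of 9.58, 9.46 and 9.73 in the 48 h arrays, against 9.53, 9.55 and 9.65 in the steady 600 arrays. The groups overlapped, the change was 0.01 ± 0.11 (SE, adjusted p = 0.964), and the mean of the steady 300 arrays was lower at 8.81. Of 14 genes on the list, 11 were measured, 5 were higher, 3 were lower and 3 did not pass the test, with a median change of 0.05. Slc6a12, Pnpla6 and Ranbp3l were not analysed here.

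Genes of the osmolyte pathways stood at different points relative to steady 600. Akr1b1 encodes aldose reductase, which makes sorbitol, and had 13.15, 13.07 and 13.07 in the 48 h arrays, against 12.71, 12.68 and 12.62 in the steady 600 arrays. It was 1.35-fold higher (adjusted p = 4.53e-06), and its steady 300 mean was 10.93. Sord, which breaks sorbitol down, had 5.26, 5.49 and 5.76 in the 48 h arrays, against 6.01, 5.69 and 6.21 in the steady 600 arrays. These groups overlapped. The change of -0.47 (adjusted p = 0.00995) was no longer past the threshold without 48 h replicate 1 (-0.35, adjusted p = 0.0978), without steady 600 replicate 3 (-0.34, adjusted p = 0.0978) or in a fit of the 6 arrays alone (adjusted p = 0.0691).

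The taurine and myo-inositol transporters differed in opposite directions. Slc6a6, the taurine transporter, had 11.03, 10.96 and 11.01 in the 48 h arrays, against 10.55, 10.51 and 10.47 in the steady 600 arrays, a 1.4-fold higher signal (adjusted p = 2.98e-07). Slc5a3, the sodium/myo-inositol cotransporter, had 7.43, 7.30 and 7.26 in the 48 h arrays, against 8.33, 8.19 and 8.10 in the steady 600 arrays, a 1.83-fold lower signal (adjusted p = 5.49e-09). Neither pair of groups overlapped. Over the time course Slc5a3 averaged 5.87 at steady 300, 8.24 at 3 h and 7.33 at 48 h, with 8.21 at steady 600.

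Among chaperones and other tonicity genes, Hspa4l, an osmotically induced relative of the Hsp70 chaperones, was higher. It had 8.83, 8.79 and 8.71 in the 48 h arrays, against 8.29, 8.32 and 8.25 in the steady 600 arrays (1.41-fold, adjusted p = 0.000262). Its mean was 6.82 at steady 300, 9.98 at 12 h and 9.29 at 24 h, so the 48 h value lay below those of 12 and 24 h and above that of steady 600. S100a4, a small calcium-binding protein, was 2.64-fold lower at 48 h, with 8.07, 8.06 and 7.97 in the 48 h arrays, against 9.56, 9.39 and 9.35 in the steady 600 arrays. Gdpd5, which encodes an enzyme that degrades the osmolyte glycerophosphocholine, was higher by 0.40, and Bgn, which encodes the matrix proteoglycan biglycan, by 0.43. Slc38a2 (0.05, adjusted p = 0.751) and the kinase gene Sgk1 (-0.14, adjusted p = 0.225) did not pass the test.

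Of 21 measured heat shock and co-chaperone genes, 2 were higher, 3 were lower and 16 did not pass the test, with a median change of 0.02. These counts are near the shares over all genes, of which 9.47% were higher and 12.5% lower. Hspb1 (-0.69 ± 0.10), Hspa2 (-0.40) and Cryab (-0.35) were the lower members. Dnajb4 (0.26, adjusted p = 0.0419) was higher beside Hspa4l, and only 1 of this list was called higher when any single array of either group was left out. Of 16 measured ion transport and volume genes, 5 were higher and 1 was lower. Slc12a2, which encodes the cotransporter that loads sodium, potassium and chloride into shrunken cells, had 10.25, 10.23 and 10.23 in the 48 h arrays, against 9.60, 9.66 and 9.78 in the steady 600 arrays (adjusted p = 6.57e-07). The anion exchanger gene Slc4a2 (0.35) and the sodium pump subunit gene Atp1b1 (0.31) were higher as well, and Fxyd5, a regulator of that pump, was lower (-0.38).

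Genes of the principal cell were lower in the 48 h arrays in most cases. Of 22 measured members, 14 were lower, 1 was higher and 7 did not pass the test, with a median change of -0.81. Aqp2, the vasopressin-regulated water channel, had log2 values of 7.29, 7.12 and 6.76 in the 48 h arrays, against 10.61, 9.92 and 9.68 in the steady 600 arrays. It was 8.09-fold lower (-3.02 ± 0.20, adjusted p = 7.73e-13), with no overlap. Over the time course Aqp2 averaged 5.61 at steady 300, 6.08 at 3 h, 5.87 at 12 h, 5.89 at 24 h and 7.06 at 48 h, with 10.07 at steady 600. The 48 h value thus lay above that of steady 300 (1.45, adjusted p = 1.72e-06) and well below that of steady 600.

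The other water channels and the vasopressin receptor showed the same order of the compared groups. Avpr2, the V2 receptor, had 5.94, 5.48 and 5.76 in the 48 h arrays, against 8.43, 8.31 and 8.24 in the steady 600 arrays, and was 6.06-fold lower (adjusted p = 3.5e-16). Aqp3, the basolateral water channel, had 6.55, 6.42 and 6.35 in the 48 h arrays, against 9.74, 9.12 and 9.04 in the steady 600 arrays, and was 7.25-fold lower (adjusted p = 4.19e-14). Aqp4, the second basolateral channel, had 5.80, 6.22 and 6.10 in the 48 h arrays, against 9.58, 9.17 and 9.08 in the steady 600 arrays, and was 9.44-fold lower (adjusted p = 8.83e-17). In these 3 genes every 48 h array lay below every steady 600 array. The steady 300 means were 5.36 for Avpr2, 5.79 for Aqp3 and 6.41 for Aqp4.

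The urea transporter gene Slc14a2 had 7.03, 6.77 and 6.83 in the 48 h arrays, against 9.28, 8.84 and 8.73 in the steady 600 arrays (4.2-fold lower, adjusted p = 4e-13), and it stood above its steady 300 mean of 5.07 by 1.80. Elf5, an epithelial transcription factor of principal cells, had 6.06, 5.86 and 5.44 in the 48 h arrays, against 9.43, 9.14 and 9.14 in the steady 600 arrays. It was 10.9-fold lower (adjusted p = 1.72e-15), and it stood above its steady 300 mean of 5.19 by 0.60 (adjusted p = 0.0104). Gata3, another transcription factor of the duct, had a log2 change of -1.81 ± 0.12, with means of 9.07 in the 48 h arrays and 10.87 in the steady 600 arrays. The sodium channel subunit gene Scnn1a (-1.68), the chloride channel subunit gene Bsnd (-1.22), the mineralocorticoid receptor gene Nr3c2 (-1.0), the prostaglandin receptor gene Ptger3 (-0.62), the cadherin gene Cdh16 (-0.55) and the potassium channel gene Kcnj1 (-0.43) were also lower. Adcy6, an adenylyl cyclase that makes cAMP after vasopressin, was higher (0.31, adjusted p = 0.00177). Hsd11b2 (-0.18, adjusted p = 0.455) and the transcription factor gene Tfcp2l1 (-0.33, adjusted p = 0.117) were among the 7 that did not pass.

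**Figure D3:**
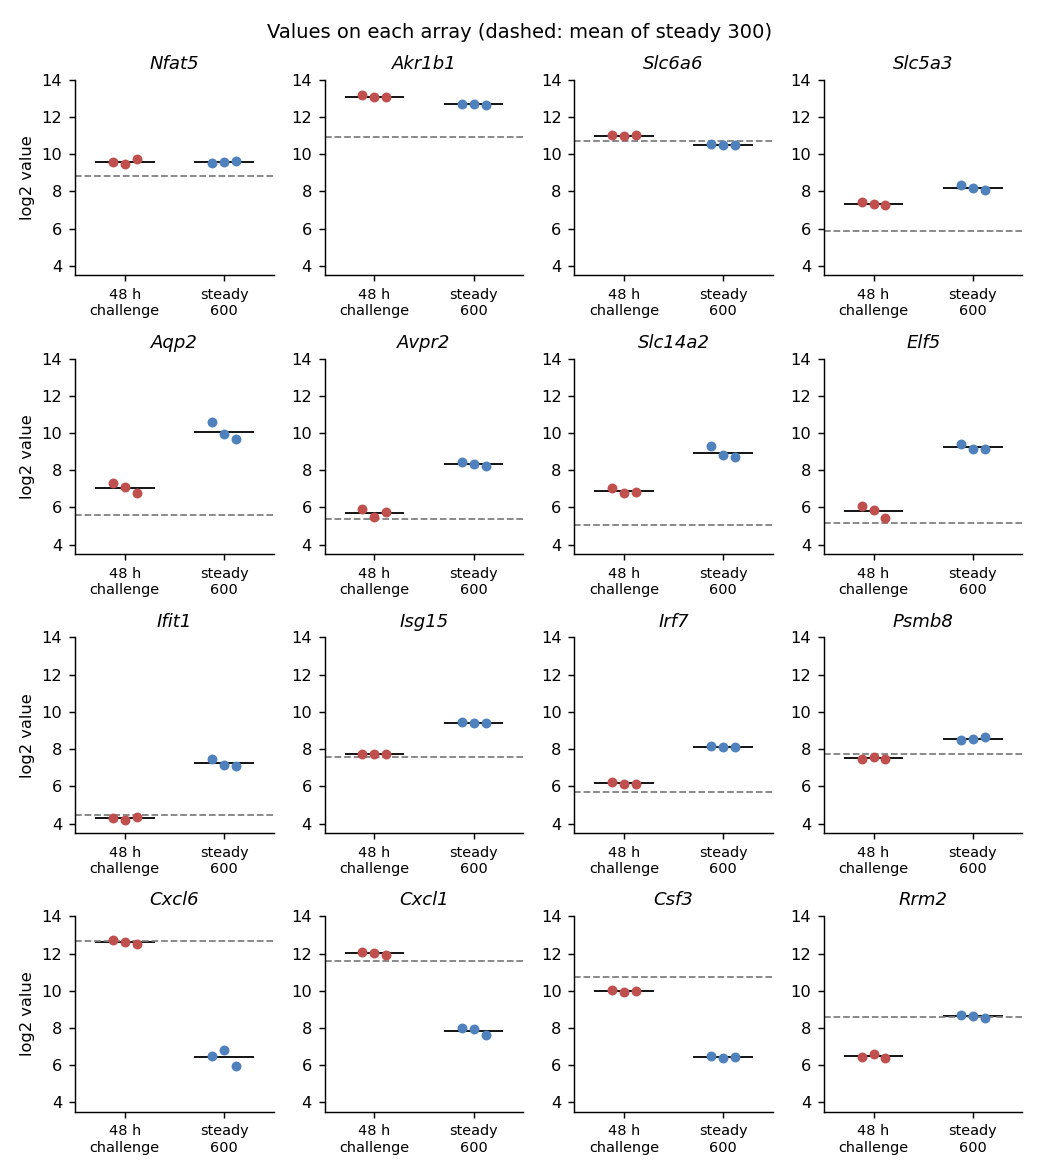
Log2 signal of 16 genes in each array, with the 48 h challenge on the left and steady 600 on the right of each panel; short lines are group means and the dashed line is the mean of the 3 steady 300 arrays. Aqp2, Avpr2, Slc14a2 and Elf5 lie lower at 48 h, Cxcl6, Cxcl1 and Csf3 higher, and Nfat5 overlaps.

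The mean log2 level over the 22 principal cell genes was 6.27 to 6.39 in the 48 h arrays, 7.56 to 7.80 in the steady 600 arrays and 5.95 to 6.04 in the steady 300 arrays. Against steady 300, 10 of these genes were higher and 2 lower at 48 h, where 9.57% and 12.0% of all genes were higher and lower. That comparison uses the same 48 h arrays.

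Markers of other cell types moved beside the principal cell genes to a smaller degree in the median. Of 15 general epithelial markers, 3 were higher (Krt7, Krt8 and St14) and 8 lower, among them Cdh1 and Epcam. The mean level of the list was 10.18 to 10.19 in the 48 h arrays and 10.45 to 10.49 in the steady 600 arrays. The adhesion gene Cdh1 had 10.42, 10.48 and 10.54 in the 48 h arrays, against 11.08, 11.09 and 11.15 in the steady 600 arrays, and Epcam had a change of -0.20 (adjusted p = 0.0177). Of 12 markers of the loop of Henle and proximal tubule, 5 were lower and none higher, with a mean level of 5.45 to 5.55 in the 48 h arrays and 5.91 to 5.96 in the steady 600 arrays. Aqp1, the water channel of the thin descending limb and proximal tubule, had 9.53, 9.44 and 9.24 in the 48 h arrays, against 11.25, 11.07 and 11.01 in the steady 600 arrays (3.26-fold lower, adjusted p = 1.04e-11). Of 13 intercalated cell markers, 1 was higher, Slc26a4 (pendrin), and 2 were lower, the carbonic anhydrase gene Car2 (-1.42) and the ammonia transporter gene Rhbg (-0.90). Such counts are near the shares over all genes (9.47% higher and 12.5% lower). The intercalated list's mean level was 5.25 to 5.33 in the 48 h arrays and 5.19 to 5.38 in the steady 600 arrays. The part of cell composition in the change of the principal cell genes was not tested.

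Claudins, which set the ion permeability of tight junctions, were lower in 5 of 14 cases and higher in 2. Of all genes, 12.5% were lower and 9.47% higher. Cldn8, the claudin of the collecting duct that limits sodium back-leak, had 6.57, 6.57 and 6.16 in the 48 h arrays, against 9.26, 9.14 and 8.96 in the steady 600 arrays, and was 6.45-fold lower (adjusted p = 3.23e-14). Cldn19 (-2.09 ± 0.10), Cldn10 (-1.59 ± 0.10), Cldn16 (-0.38) and Cldn7 (-0.35) were lower too. Cldn16, Cldn19 and Cldn10 are claudins of the loop of Henle. The higher members were Cldn14 (0.37, adjusted p = 0.011) and Cldn23. Of these 2 higher calls, 0 were left without 48 h replicate 2, and 1 without 48 h replicate 3, steady 600 replicate 1 or steady 600 replicate 2.

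Interferon-stimulated genes were lower in the 48 h arrays almost throughout. These genes are switched on by type I interferon, and many carry the interferon-stimulated response element in their promoters. Of 28 measured members, 26 were lower, 1 was higher and 1 did not pass the test, with a median change of -1.09. The number lower was between 24 and 26 in every alternative tried. Ifit1, whose product binds viral RNA, had 4.29, 4.22 and 4.34 in the 48 h arrays, against 7.48, 7.14 and 7.10 in the steady 600 arrays (7.75-fold lower, adjusted p = 4.08e-12). Its steady 300 mean was 4.44.

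The effectors and regulators of the response had the same order. Isg15, a ubiquitin-like modifier, had 7.76, 7.73 and 7.75 in the 48 h arrays, against 9.45, 9.39 and 9.41 in the steady 600 arrays (3.18-fold lower). Irf7, a transcription factor that amplifies interferon production, had 6.26, 6.11 and 6.14 in the 48 h arrays, against 8.16, 8.11 and 8.10 in the steady 600 arrays (3.87-fold lower). The antiviral GTPase genes Mx1 (-2.71 ± 0.24) and Mx2 (-2.88 ± 0.20), Rsad2 (-1.98 ± 0.15), Ifit3 (-1.87 ± 0.18) and the oligoadenylate synthetase genes Oas1a (-1.75) and Oas1b (-1.74) followed. Mx1 and Mx2, and Oas1a and Oas1b, are close relatives whose probes may cross-hybridise. Gbp2 was the member called higher (0.26, adjusted p = 0.0179), a call lost without 48 h replicate 2 or steady 600 replicate 2, and Trim25 did not pass (-0.05, adjusted p = 0.75).

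The promoters of the interferon list are shown because the response element can be read in them. The letters GAAA, then any 2 bases, then GAAA were searched on both strands (TTTC, any 2 bases, TTTC on the other) in RefSeq promoter windows of the GRCr8 assembly, 250 bases before to 50 bases after each gene's start. Of the 28 measured members, 21 had a window, and 12 of these held a match (57.1%), against 408 of 11968 windows of measured genes (3.41%) and 1312 of all 33469 windows (3.92%). No other motif was searched, and 2 matches in 1 window may share bases. The lines below give 60 bases of 6 of these promoters, 5′ to 3′ on the gene's strand, with complete matches in capitals. They are the windows of Rsad2 (chr6:48788233-48788292, minus strand), Irf7 (chr1:205800058-205800117, minus), Ifit3 (chr1:241527257-241527316, plus), Oas1a (chr12:41330400-41330459, plus), Oas1b (chr12:41395877-41395936, minus) and Bst2 (chr16:18255064-18255123, minus).
Rsad2: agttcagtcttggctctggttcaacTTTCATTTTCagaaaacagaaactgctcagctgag
Irf7: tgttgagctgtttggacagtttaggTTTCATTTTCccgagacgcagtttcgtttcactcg
Ifit3: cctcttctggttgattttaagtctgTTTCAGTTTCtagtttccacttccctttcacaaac
Oas1a: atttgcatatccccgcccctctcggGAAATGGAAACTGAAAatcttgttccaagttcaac
Oas1b: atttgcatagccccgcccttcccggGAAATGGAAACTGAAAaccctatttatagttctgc
Bst2: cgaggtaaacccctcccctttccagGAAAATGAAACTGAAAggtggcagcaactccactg

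In Oas1a, Oas1b and Bst2 the 2 matches overlap and form 1 run of capitals, and the runs of Oas1a and Oas1b are identical. The first match began 147 bases before the start of Rsad2, 69 before that of Irf7 and 44 before that of Ifit3. The 12 genes with a match held 11 that were lower and Gbp2, which was called higher, though not in every alternative. In the whole list 26 of 28 were lower, so a match did not set these genes apart in direction. Bst2, which encodes the membrane protein tetherin, had a log2 change of -0.75 (adjusted p = 4.33e-07). A match is a description of the letters and does not show that a factor binds there.

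Genes of antigen processing were lower beside them. Of 14 measured, 11 were lower, none was higher and 3 did not pass the test, with a median change of -0.47. The immunoproteasome subunits Psmb8 and Psmb9, which replace constitutive subunits when interferon acts, had log2 changes of -1.06 ± 0.08 and -1.21 ± 0.10. Psmb8 had 7.48, 7.58 and 7.44 in the 48 h arrays, against 8.48, 8.55 and 8.65 in the steady 600 arrays. The peptide transporter gene Tap1 (-0.73) and B2m, the light chain of class I molecules (-0.51), were lower, whereas Psmb5, Psmb6 and Psmb7, the constitutive proteasome subunits, were the 3 that did not pass.

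The mean level over the 28 interferon genes was 6.93 to 7.02 in the 48 h arrays, 8.15 to 8.27 in the steady 600 arrays and 6.84 to 7.09 in the steady 300 arrays. The levels at 48 h thus lay within the range of steady 300. Against steady 300, 4 members were higher (Mx1, Irf7, Ifi44 and Ifi27) and 3 lower at 48 h, with a median change of 0.01.

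Cytokine, chemokine and NF-kB target genes were higher in the 48 h arrays in 20 of 28 cases, lower in 3 and did not pass in 5, with a median change of 0.99. The number higher was 20 to 22 in every alternative tried. Cxcl1 had 12.06, 12.03 and 11.95 in the 48 h arrays, against 8.0, 7.94 and 7.62 in the steady 600 arrays (17.9-fold higher, adjusted p = 1.64e-22). Csf3 had 10.02, 9.96 and 9.97 in the 48 h arrays, against 6.52, 6.38 and 6.42 in the steady 600 arrays (11.7-fold higher, adjusted p = 1.15e-24). In both genes the 48 h arrays lay far above the steady 600 arrays and close to one another.

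The cytokine genes Tnf, Il1a and Il1b were higher as well. Tnf, the tumour necrosis factor gene, had 9.25, 9.27 and 9.26 in the 48 h arrays, against 7.15, 7.26 and 6.97 in the steady 600 arrays (4.39-fold higher). Il1a had 8.92, 8.69 and 8.61 in the 48 h arrays, against 5.87, 5.98 and 5.11 in the steady 600 arrays (8.52-fold higher), and stood below its steady 300 mean of 10.85. Il1b was higher by 2.29 ± 0.15, the monocyte chemokine genes Ccl7 by 2.04 ± 0.11 and Ccl2 by 0.65 ± 0.06, and the inducible nitric oxide synthase gene Nos2 by 1.88 ± 0.20. Of the NF-kB components, Nfkb1 (0.95) and the inhibitor gene Nfkbia (0.62) were higher and Nfkb2 did not pass the test. Lcn2, a siderophore-binding protein released by injured tubule cells, had 13.03, 13.03 and 12.95 in the 48 h arrays, against 11.89, 12.08 and 11.94 in the steady 600 arrays.

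The 3 lower members were Cxcl10 (-2.09 ± 0.13), Il18 (-0.46 ± 0.14) and the adhesion gene Vcam1 (-0.57). Cxcl10 is a chemokine induced by interferon, and it had 6.05, 6.03 and 5.91 in the 48 h arrays, against 8.38, 8.03 and 7.86 in the steady 600 arrays. Il6 (0.03, adjusted p = 0.934), Il33, Ccl5 and Icam1 (0.24, adjusted p = 0.139) did not pass.

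The mean level over the 28 cytokine genes was 8.82 to 8.93 in the 48 h arrays, 7.46 to 7.57 in the steady 600 arrays and 9.25 to 9.29 in the steady 300 arrays. Against steady 300, 5 members were higher (Cxcl1, Cxcl2, Ccl2, Ccl20 and Ptgs2) and 12 were lower at 48 h. Cxcl6 did not pass that test (-0.04, adjusted p = 0.925).

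Many of these genes are also expressed by leukocytes, so leukocyte markers are given beside them. Of 14 markers, 1 was higher (Cd14, 0.54, adjusted p = 0.005), 3 were lower (Lyz2, -0.71, Cd74, -0.53, and Vsig4, -0.52) and 10 did not pass the test. Their mean level was 7.09 to 7.18 in the 48 h arrays, 7.17 to 7.26 in the steady 600 arrays and 8.67 to 8.76 in the steady 300 arrays. The pan-leukocyte gene Ptprc had 7.20, 7.37 and 7.18 in the 48 h arrays, against 6.86, 7.05 and 6.86 in the steady 600 arrays (adjusted p = 0.107). With 9.47% of all genes higher and 12.5% lower, the counts of 1 and 3 among 14 give no clear direction for the leukocyte markers. The part of leukocytes in the change of the cytokine genes was not tested. Vsig4, a gene of resident macrophages, had means of 5.68 in the 48 h arrays, 6.21 in the steady 600 arrays and 11.14 in the steady 300 arrays.

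**Figure D4:**
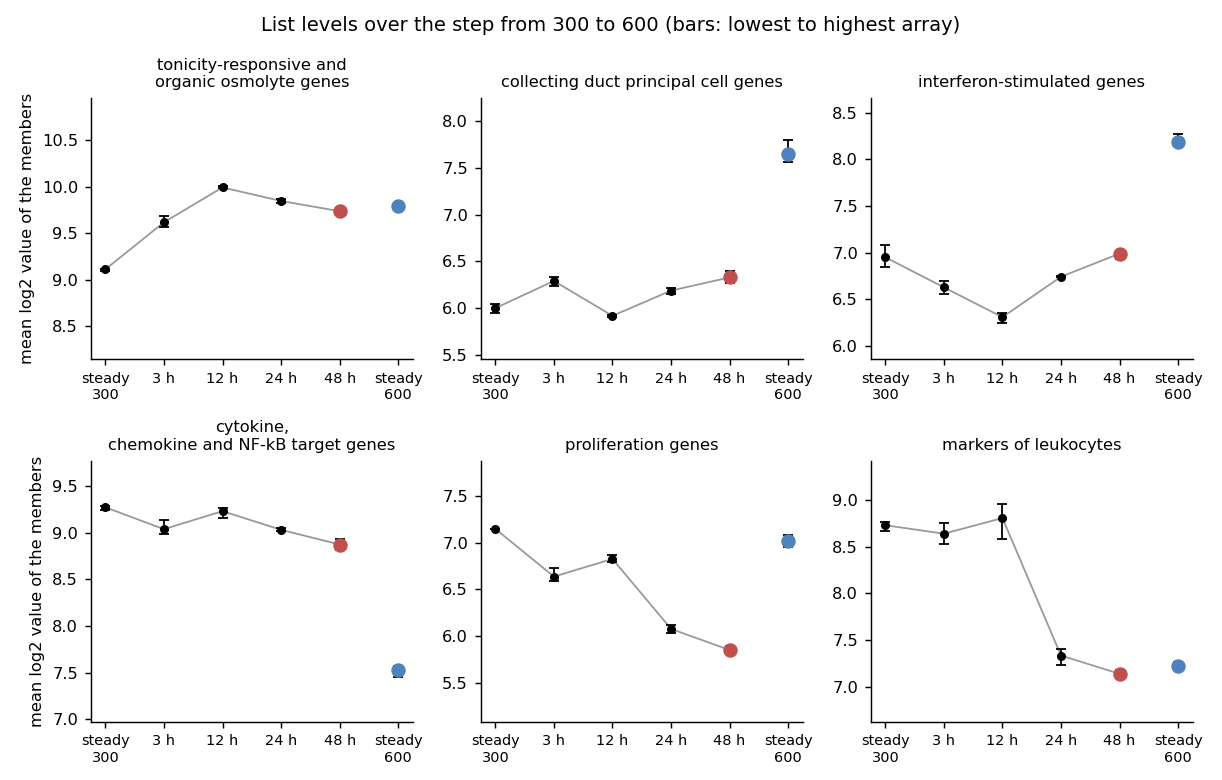
Mean log2 signal over the measured members of 6 gene lists at steady 300, after 3, 12, 24 and 48 h at 600, and at steady 600; bars run from the lowest to the highest of the 3 arrays. At 48 h the interferon list lies at 6.93 to 7.02, within its steady 300 range of 6.84 to 7.09 and below its steady 600 range of 8.15 to 8.27, and the proliferation list at 5.81 to 5.89 lies below both steady groups.

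Complement genes were divided, with 4 of 13 higher and 5 lower. C3, the central component, had 11.67, 11.54 and 11.63 in the 48 h arrays, against 10.10, 10.02 and 10.02 in the steady 600 arrays (2.96-fold higher, adjusted p = 1.8e-14). C1s, C1r (0.60) and the membrane regulator gene Cd55 (0.77) were higher. The macrophage-derived C1qa, C1qb and C1qc, with Cfi (-0.41) and C7, were the lower members, and this number fell to 3 without 48 h replicate 3 or without steady 600 replicate 2.

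Genes of cell division were lower in the 48 h arrays in 25 of 26 cases, with a median change of -1.22 and a range of -2.16 to -0.21. The exception, the replication helicase gene Mcm7, did not pass the test (-0.21, adjusted p = 0.174). Rrm2, the small subunit of ribonucleotide reductase, had 6.46, 6.58 and 6.37 in the 48 h arrays, against 8.70, 8.65 and 8.54 in the steady 600 arrays (4.47-fold lower, adjusted p = 5.38e-14). Top2a, the topoisomerase of dividing cells, had 5.84, 5.32 and 5.39 in the 48 h arrays, against 7.82, 7.45 and 7.58 in the steady 600 arrays. The thymidylate synthase gene Tyms (-1.36), the mitotic kinase gene Ttk (-1.54 ± 0.10), the cyclin gene Ccnb2 (-1.47 ± 0.11) and the replication clamp gene Pcna (-0.75 ± 0.10) were lower.

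The mean level over the 26 proliferation genes was 5.81 to 5.89 in the 48 h arrays, 6.95 to 7.08 in the steady 600 arrays and 7.14 to 7.15 in the steady 300 arrays. Against steady 300, 24 were lower and none higher at 48 h, with a median change of -1.46. The 24 h arrays, at 6.03 to 6.12, lay above the 48 h arrays.

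Stromal genes were mostly lower too. Of 14 markers of fibroblasts and interstitial cells, 8 were lower and 2 higher, with a median change of -0.43 and a mean level of 8.63 to 8.74 in the 48 h arrays, 9.05 to 9.18 in the steady 600 arrays and 9.63 to 9.64 in the steady 300 arrays. Col1a2, a chain of type I collagen, had 9.95, 9.90 and 10.19 in the 48 h arrays, against 11.07, 11.20 and 11.31 in the steady 600 arrays. Col1a1 (-1.27 ± 0.13), the proteoglycan gene Dcn (-1.33 ± 0.13) and the smooth muscle actin gene Acta2 (-0.96) were lower, and the fibronectin gene Fn1 (0.88 ± 0.10) and Postn (0.40) higher. Of these 2 higher calls, 1 was left without 48 h replicate 1 or 3, or without any single steady 600 array. Of 11 endothelial markers, 4 were higher, among them Pecam1 (0.39), and 4 lower, among them the receptor gene Kdr (-1.26 ± 0.11) and Plvap (-1.47 ± 0.17).

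Of 15 matricellular and YAP target genes, 7 were higher and 3 lower. Edn1, which encodes endothelin 1, a peptide that the collecting duct makes and that lowers its sodium reabsorption, had 9.38, 9.41 and 9.25 in the 48 h arrays, against 7.71, 8.09 and 7.94 in the steady 600 arrays (2.7-fold higher, adjusted p = 4.2e-11). Ankrd1 (0.82), Ccn1 (0.69) and Ccn4 (-0.57) were the next members named. Of 13 tubule injury genes, 2 were higher, Lcn2 and Cd44, and 6 lower, among them Clu (-1.01 ± 0.07), Timp1 (-0.44) and Igfbp7 (-0.33). Of these 2 higher calls, 1 was left without 48 h replicate 1 or 3, or without steady 600 replicate 1 or 3.

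Some genes at 48 h lay outside the levels of both steady states between which the cultures were moved. The 5 with the highest values relative to both were Clca4l, Ly6i, Capn13, S100a5 and Ptgs2. They were chosen for this pattern, so their values are a description. Clca4l had 9.12, 8.89 and 8.84 in the 48 h arrays, 4.30, 3.92 and 3.85 in the steady 600 arrays and a mean of 6.23 at steady 300. Ly6i, of the Ly6 family, had 11.17, 10.62 and 10.06 in the 48 h arrays, 8.14, 8.06 and 7.79 in the steady 600 arrays and a mean of 7.94 at steady 300. Its 48 h arrays spread over more than 1 log2 unit. Capn13, a calpain protease gene, had 7.34, 7.25 and 6.99 in the 48 h arrays, 4.57, 4.46 and 4.48 in the steady 600 arrays and a mean of 4.82 at steady 300. Ptgs2, cyclooxygenase 2, which makes prostaglandins in the medulla, had 8.94, 8.78 and 8.67 in the 48 h arrays, 6.88, 6.83 and 6.88 in the steady 600 arrays and a mean of 7.21 at steady 300. Its 24 h mean was 10.03, above that at 48 h.

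The 5 with the lowest values relative to both were Rrm2, Rgs5, Top2a, Actg2 and Cdkn3. Rgs5, a regulator of G protein signalling found in pericytes, had 8.11, 8.09 and 8.15 in the 48 h arrays, 10.49, 10.21 and 10.13 in the steady 600 arrays and a mean of 10.19 at steady 300. Actg2, the enteric smooth muscle actin, had 6.48, 6.51 and 6.55 in the 48 h arrays, 8.15, 8.62 and 8.43 in the steady 600 arrays and a mean of 8.38 at steady 300. Cdkn3, a phosphatase gene of the cell cycle, had 4.50, 4.84 and 4.67 in the 48 h arrays, 6.55, 6.49 and 6.54 in the steady 600 arrays and a mean of 6.86 at steady 300. The set thus joined 3 genes of cell division with 2 genes of contractile and perivascular cells.

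A second challenge in the series, from 600 to 900 mosmol/kg for 24 h, was set against steady 900 in the same way, and the difference between both changes was tested directly. The genes named for it include the 24 chosen for the widest changes in the step to 600, so that their changes differ between the steps follows in part from that choice. The steps, the final osmolalities and the times differ between these comparisons, and this test cannot tell them apart. At 24 h at 600 the median changes against steady 600 were -0.95 (principal cell list), -1.29 (interferon) and 1.03 (cytokine). At 24 h at 900 against steady 900 they were -0.19, -0.12 and 0.13. Over all genes these medians were 0.004 at 600 and 0.02 at 900. The difference between the steps at equal time was not tested. At 900, 9.47% of genes were higher and 8.83% lower at 24 h than at steady 900. The difference between the changes passed the threshold for 2261 genes (15.6%), of which 913 were more positive (6.29%) and 1348 more negative (9.29%) in the step to 600.

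The collecting duct, interferon and cytokine genes differed between the steps. For these lists the step to 900 began nearer to its steady end than the step to 600. The principal cell list had a mean level of 5.998 at steady 300, 7.65 at steady 600 and 8.42 at steady 900. In the same order the interferon list had 6.95, 8.19 and 8.67, and the cytokine list 9.27, 7.53 and 7.28. The part of this nearer start in the differences was not tested. Aqp2 was 8.09-fold lower at 48 h at 600, whereas at 24 h at 900 its change against steady 900 was -0.10 (adjusted p = 0.806), a difference of -2.92 (adjusted p = 5.48e-09). The principal cell list had 14 of 22 members with a more negative change in the step to 600 and 1 with a more positive one. At 900, 5 of these members were higher and 6 lower. Of the interferon genes, 22 of 28 had a more negative change in the step to 600 and 1 (Gbp2) a more positive one. At 900 none of them was higher and 2 were lower. Of the cytokine genes, 17 of 28 had a more positive change in the step to 600 and 3 (Cxcl10, Csf1 and Ptgs2) a more negative one. At 900, 9 of the cytokine genes were higher and 4 lower.

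The proliferation genes were lower in both steps. At 24 h at 900, 26 of 26 were lower than at steady 900, with a median change of -1.49, and 11 of 26 had a less negative change in the step to 600. The change of Rrm2 was -2.16 at 600 and -2.41 at 900, and the difference between these did not pass the test (0.25, adjusted p = 0.422). Of the fibroblast markers, 10 of 14 were higher at 24 h at 900 than at steady 900 and none lower, with a median change of 0.76. For 12 of 14 the change was more negative in the step to 600. Their mean level was 9.64 at steady 300, 9.13 at steady 600, 8.27 at 24 h at 900 and 7.47 at steady 900. It thus lay below its start at 24 h at 900, and above a steady end that was lower still. The part of these different starts and ends was not tested. Nfat5 (-0.04, adjusted p = 0.906), Akr1b1 (0.22, adjusted p = 0.112) and Sord (-0.44, adjusted p = 0.128) did not pass this test. The difference of Sord passed without 48 h replicate 3 (adjusted p = 0.0462) or steady 600 replicate 2 (adjusted p = 0.0362), and that of Akr1b1 passed with array weights (adjusted p = 0.0118) or a trended, robust variance (adjusted p = 0.0343).

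**Figure D5:**
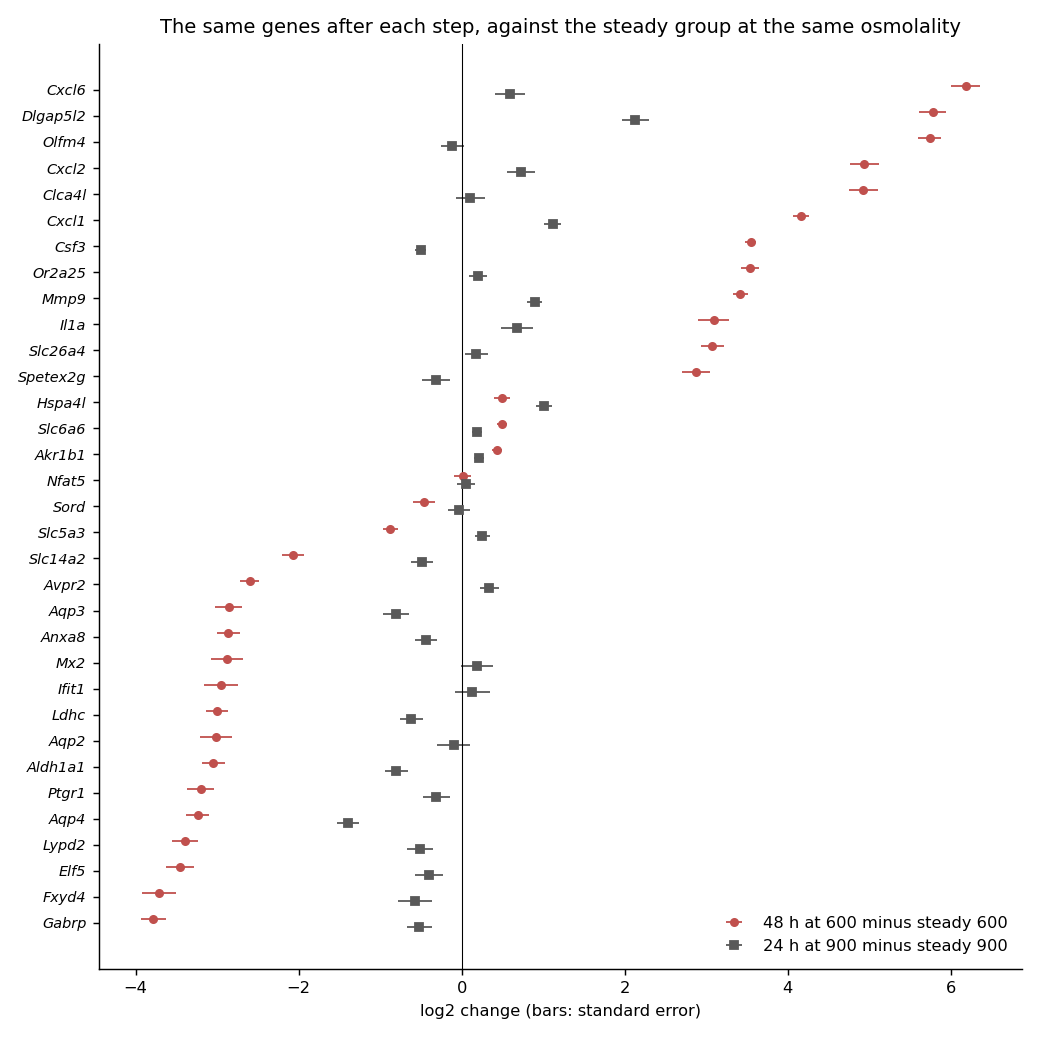
Log2 change ± SE of 33 genes in 2 comparisons, 48 h at 600 minus steady 600 and 24 h at 900 minus steady 900. Cxcl6 lies at 6.18 in the step to 600 and 0.59 in the step to 900, and Aqp2 at -3.02 and -0.10.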

How the data were processed

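RNA from 30 samples of cultured cells had been hybridised to Affymetrix rat gene arrays. The authors deposited log2 values made with RMA, per the submitters' processing notes (its version is not given in the sources used here). RMA corrects background, quantile-normalizes and summarises probes, which can compress large changes. Of 29170 probe sets, 15310 had 1 gene symbol in the platform annotation, 323 several and 13537 none listed, and 15279 matched RefSeq by gene identifier with no symbol changed. The brightest probe set stood for each of 14506 genes (527 had more than 1). Columns of per-sample values left unused numbered 0. Neither the labels nor the table named a batch.

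One mean per group was fitted over all 30 arrays with limma 3.58.1 in R 4.3.3, and contrasts were tested with eBayes and Benjamini-Hochberg adjustment over all genes at 0.05, a procedure tested on simulated data. Named genes were the 12 largest non-overlapping increases and decreases (unnamed loci left out), the 4 smallest p-values of each list, a fixed set of tonicity and collecting duct genes, and the 5 highest and lowest against both steady groups. Other genes, chosen after their values were seen, illustrate counts. Members and lists were chosen with earlier results of these data known. Alternatives changed normalization, centring, the filter on dim genes (lowest 30%), probe sets, array weights, the variance model, the arrays fitted, a replicate block and each replicate in turn.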

Additional observations from a re-analysis of the deposited data

Results flagged for a closer look

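Of 33 genes compared between the step to 600 (48 h against steady 600) and the step to 900 (24 h against steady 900), 30 had changes that differed by limma's test of the difference at an adjusted p under 0.05, where 15.6% of all genes did. Of the 33, 24 were chosen as the 12 largest increases and 12 largest decreases in the step to 600, so the choice favours a difference and the count of 30 is a description. Step, final osmolality and time differ between the comparisons, and this test cannot tell them apart. The difference between the steps at equal time was not tested. For the principal cell, interferon and cytokine lists, the step to 900 also began nearer to its steady end, and the part of this was not tested. Differences are given on the log2 scale, the change in the step to 600 minus that in the step to 900.

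Among the compared genes, the chemokine and cytokine genes had more positive changes in the step to 600. The differences were 5.59 for Cxcl6, 4.21 for Cxcl2, 3.05 for Cxcl1, 4.05 for Csf3 and 2.41 for Il1a. Olfm4 followed with 5.86, Clca4l with 4.82, Dlgap5l2 with 3.64, Or2a25 with 3.33, Spetex2g with 3.18, Slc26a4 with 2.90, Mmp9 with 2.52 and the taurine transporter gene Slc6a6 with 0.30.

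Collecting duct genes had more negative changes in the step to 600. The differences were -2.92 for Aqp2, -2.05 for Aqp3, -1.85 for Aqp4, -2.94 for Avpr2, -1.58 for Slc14a2, -3.05 for Elf5 and -3.14 for Fxyd4. Those of the interferon-stimulated genes were -3.08 for Ifit1 and -3.07 for Mx2. The others were -3.26 for Gabrp, -2.88 for Lypd2, -2.89 for Ptgr1, -2.25 for Aldh1a1, -2.38 for Ldhc, -2.42 for Anxa8, -1.13 for the myo-inositol transporter gene Slc5a3 and -0.52 for Hspa4l.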

How the results depend on the processing

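Of 2688 values recomputed under the alternatives for 129 named genes and 33 differences, 2641 kept their direction and side of the threshold, 30 lost the call (of Phlda3, Mdm2, Mvd, Ndufa2 and Sord), 17 gained one (Nsdhl, Ndufb5, Sdha, Atp6v0d2 and the differences of Akr1b1 and Sord) and 0 changed direction. Most of the named genes were chosen for a large change or a small adjusted p, which favours calls that hold. This tally is therefore a description and does not cover other genes, such as Gbp2. With array weights 2209 genes were higher and 3765 differed between the steps, and the cause was not tested. Leaving out each replicate gave 2558 to 2740 changed genes, 1018 to 1148 higher and 1537 to 1610 lower, and 1896 to 2019 differences between the steps, with fewer arrays in each fit. The 6 arrays alone gave 3857 changed genes. The share of lower calls was 49.32% after quantile normalization and 57.04% after cyclic loess. Samples of the same replicate number had deviations that correlated at 0.04, 0.04 and 0.12. These were not all over 0.1, so the numbers were not taken to pair the samples, although each array correlated best with its own number, a hint from the data. A fit with the replicate block gave 3344 changed genes, against 3313 on the same arrays without it, an alternative chosen after seeing the data, and cost Mvd its call (adjusted p = 0.0532). The fit of the compared arrays alone was not run for the difference between the steps, which needs the arrays at 900 too. Higher members of the collecting duct list numbered up to 2, of leukocyte markers up to 3 and of antigen processing genes up to 1 under some settings. Signal over background was not given, which limits what can be said of dim genes.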

Other observations

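Genes of metabolism and stress responses were divided. For the counts below, 9.47% of all genes were higher and 12.5% lower. Of 26 glycolysis and hypoxia-inducible genes, 9 were higher at 48 h than at steady 600 and 7 lower, and the number higher was 5 without 48 h replicate 1 or steady 600 replicate 2. Vegfa, the angiogenic factor induced in hypoxia, had log2 values of 8.40, 8.15 and 8.23 in the 48 h arrays, against 6.95, 7.06 and 6.99 in the steady 600 arrays (2.39-fold higher, adjusted p = 5.45e-11). The lactate exporter gene Slc16a3 was higher by 0.57, and the glycolytic regulator gene Pfkfb3 (-1.11 ± 0.10) and Pfkp (-0.44) were lower. Of 25 oxidative phosphorylation genes, 1 was higher (Ndufa2, 0.32, adjusted p = 0.0358) and none lower, and the call was lost without any single array other than 48 h replicate 3.

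Of 21 antioxidant genes, 5 were higher and 4 lower. Sod2, the mitochondrial superoxide dismutase, had 11.90, 11.82 and 11.76 in the 48 h arrays, against 10.70, 10.72 and 10.65 in the steady 600 arrays (2.2-fold higher, adjusted p = 1.72e-14). Gclm (0.56), which supports glutathione synthesis, was higher, and the glutathione reductase gene Gsr (-0.78) and the peroxidase gene Gpx1 (-0.84) were lower. Of 19 amino acid transporter genes, 6 were higher and 4 lower. Slc38a4 had 10.68, 10.64 and 10.72 in the 48 h arrays, against 9.38, 9.37 and 9.33 in the steady 600 arrays, and the glutamate transporter gene Slc1a1 was higher by 1.17 ± 0.08. The large neutral amino acid transporter gene Slc7a5 (-0.88 ± 0.11) and Slc3a1 (-0.93 ± 0.11) were lower.

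Of 22 unfolded protein and integrated stress response genes, 8 were higher and 4 lower. The number higher was 4 without 48 h replicate 2 and 5 without steady 600 replicate 1 or 3. The chaperone genes Hspa5 (0.26) and Calr (0.25) were among the higher members, as was Atf3 (0.46), and the serine synthesis genes Psat1 (-1.0) and Phgdh (-0.67) and Herpud1 (-0.40) were lower. Of 23 immediate early genes, 4 were higher, among them Ier3 (0.71), and 8 lower, among them Dusp2 (-1.13), Fos (-0.89) and Dusp6 (-0.72), and 5 were lower without 48 h replicate 1 or steady 600 replicate 2.

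Of 18 p53 target and growth arrest genes, 1 was higher, the death receptor gene Fas (0.48), and 3 were lower. Cdkn1c, an inhibitor of cyclin-dependent kinases, had 7.47, 7.54 and 7.41 in the 48 h arrays, against 9.04, 8.93 and 9.21 in the steady 600 arrays (3.0-fold lower, adjusted p = 2.32e-14). The other calls, Phlda3 (-0.33, adjusted p = 0.0383) and Mdm2 (-0.33, adjusted p = 0.0438), rested on the setting, and 1 lower call was left without 48 h replicate 1 or 2, or without steady 600 replicate 2 or 3. Over all alternatives the number lower was 1 to 7. Of 15 cholesterol genes, 1 was higher (Mvd, 0.30, adjusted p = 0.0452) and 2 were lower (Sqle, -0.49, and Fdft1, -0.29), and the higher call was lost without any single array other than steady 600 replicate 3, with cyclic loess (adjusted p = 0.0649) and in a fit of the 6 arrays alone (adjusted p = 0.0564). Over all alternatives 0 to 4 cholesterol genes were higher and 2 to 4 lower. The counts of the p53 and cholesterol lists were near the shares over all genes (9.47% higher and 12.5% lower).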
